A study of Mus musculus with 67 samples.

Results

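The 9 genes of the mouse HoxD cluster were followed in RNA-seq of forelimb buds: *Hoxd13*, *Hoxd12*, *Hoxd11*, *Hoxd10*, *Hoxd9*, *Hoxd8*, *Hoxd3*, *Hoxd4* and *Hoxd1*. They were taken by gene name from the 46983 gene IDs of the expression tables, a rule that uses names and no measured value. All 9 were listed in each of the 14 libraries. The study asked when the repressor form of GLI3 begins to act on Hedgehog (HH) target genes in the limb. It compared buds before HH signaling, at E9.25 (embryonic day, 21 to 23 somites), with buds after its onset, at E10.5 (32 to 35 somites). At E9.25 whole forelimb buds were used, from WT (n = 3 libraries) and *Gli3*-/- embryos (n = 4). At E10.5 only the anterior part was used, from WT (n = 4) and *Gli3*-/- embryos (n = 3). The WT embryos were Swiss Webster, and per the methods of the study the mutant allele was *Gli3* Xt-J, kept on that background. Functional *Gli3* is missing in every cell of the embryo and not in the limb alone. By the labels a library is a pool of about 4 pairs of buds (E9.25) or of 2 pairs of anterior parts (E10.5), while the methods of the study give about 4 pairs at both stages. Stage and the part of the bud taken change together between E9.25 and E10.5, and their effects cannot be told apart. In bulk tissue, fewer cells that express a gene and less RNA per cell also cannot be told apart.

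Hox genes encode homeodomain transcription factors that give cells along the body and limb axes their positional identity. They lie in clusters, and within a cluster the genes at the 3′ end are switched on earlier and in a broader domain than those at the 5′ end, a rule called collinearity. In the limb the HoxD cluster answers to enhancers in the gene deserts on both of its sides, and its 5′ genes become restricted to the posterior bud, where *Shh* is made, before they later mark the digits. The GLI3 repressor restrains posterior genes in the anterior bud, and embryos without *Gli3* form extra digits. *Hoxd13* at the 5′ end patterns the digits, and *Hoxd11* and *Hoxd12* act with their paralogues in the forearm and digits. *Hoxd9* and *Hoxd10* contribute to the more proximal limb. *Hoxd3* and *Hoxd4* are best known for the neck vertebrae, and *Hoxd1* for sensory neurons.

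In the tables the cluster spanned 96.8 kb of chromosome 2 on the plus strand, chr2:74668310-74765142 (mm10), from the start of *Hoxd13* to the end of *Hoxd1*. From *Hoxd13*, the genes started after 6.7 kb (*Hoxd12*), 11.2 kb (*Hoxd11*), 23.6 kb (*Hoxd10*), 29.4 kb (*Hoxd9*), 36.3 kb (*Hoxd8*), 43.6 kb (*Hoxd3* and *Hoxd4*) and 94.7 kb (*Hoxd1*). The spans of *Hoxd3* and *Hoxd4* shared 17.2 kb, so reads in shared sequence could be given to either gene by the counting, and both levels are uncertain to that extent. *Hoxd11* and *Hoxd10* are both overlapped on the plus strand by the noncoding *Gm28309*, and *Hoxd8*, *Hoxd3* and *Hoxd4* by *Hoxd3os1* on the minus strand. The noncoding *Gm28230* on the plus strand overlaps *Hoxd3* and *Hoxd4*, and its mean TPM in E10.5 WT libraries was 13.7 against 3.95 for *Hoxd3*. Whether the counting used strand is not given in the sources used here, and strand would not separate genes on the same strand. Reads of such overlapping genes may therefore not be told apart.

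The 250 bases before the annotated start are shown for the 4 genes that rose in the *Gli3*-/- anterior bud and for 2 genes at the other end of the cluster that fell between the stages. They are from RefSeq (GRCm38.p6, plus strand), which held a promoter for 9 of 9 genes and a second one for *Hoxd11*. Capitals mark the letters TATAAA on either strand.
Hoxd13, chr2:74667975-74668224: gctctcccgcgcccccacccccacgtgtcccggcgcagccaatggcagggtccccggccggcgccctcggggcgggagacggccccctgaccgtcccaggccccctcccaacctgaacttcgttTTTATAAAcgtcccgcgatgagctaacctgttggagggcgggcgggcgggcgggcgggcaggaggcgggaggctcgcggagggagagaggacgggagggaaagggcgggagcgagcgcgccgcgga
Hoxd12, chr2:74674763-74675012: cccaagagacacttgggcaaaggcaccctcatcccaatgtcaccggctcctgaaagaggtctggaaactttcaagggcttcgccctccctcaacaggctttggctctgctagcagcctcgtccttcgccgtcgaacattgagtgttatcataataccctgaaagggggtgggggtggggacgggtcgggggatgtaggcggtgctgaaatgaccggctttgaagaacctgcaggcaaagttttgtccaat
Hoxd11, first start, chr2:74679308-74679557: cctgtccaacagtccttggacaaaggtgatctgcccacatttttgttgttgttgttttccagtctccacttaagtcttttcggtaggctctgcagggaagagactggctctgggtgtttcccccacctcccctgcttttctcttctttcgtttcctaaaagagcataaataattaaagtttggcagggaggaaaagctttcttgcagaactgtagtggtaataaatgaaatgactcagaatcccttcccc
Hoxd11, second start, chr2:74682073-74682322: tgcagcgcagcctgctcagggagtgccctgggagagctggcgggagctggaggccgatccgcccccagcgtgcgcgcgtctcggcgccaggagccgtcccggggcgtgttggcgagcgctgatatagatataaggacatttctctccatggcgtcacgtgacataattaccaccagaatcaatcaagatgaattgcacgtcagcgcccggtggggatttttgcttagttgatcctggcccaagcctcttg
Hoxd10, chr2:74691641-74691890: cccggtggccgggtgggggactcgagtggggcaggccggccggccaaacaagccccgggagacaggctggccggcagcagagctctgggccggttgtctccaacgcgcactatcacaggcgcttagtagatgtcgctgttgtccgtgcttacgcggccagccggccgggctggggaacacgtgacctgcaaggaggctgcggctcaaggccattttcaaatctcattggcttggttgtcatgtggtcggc
Hoxd3, chr2:74711743-74711992: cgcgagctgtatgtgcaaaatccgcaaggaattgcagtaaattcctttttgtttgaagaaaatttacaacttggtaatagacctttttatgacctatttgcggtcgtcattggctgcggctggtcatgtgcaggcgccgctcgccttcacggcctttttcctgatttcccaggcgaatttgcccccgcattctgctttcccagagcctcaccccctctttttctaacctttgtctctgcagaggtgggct
Hoxd1, chr2:74762730-74762979: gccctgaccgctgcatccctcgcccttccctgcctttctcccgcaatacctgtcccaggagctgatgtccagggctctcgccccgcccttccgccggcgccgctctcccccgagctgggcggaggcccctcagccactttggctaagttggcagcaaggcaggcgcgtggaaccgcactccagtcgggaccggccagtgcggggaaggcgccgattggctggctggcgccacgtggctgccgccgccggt
The GLI consensus GACCACCCA, searched on both strands, was in 0 of these 10 promoter windows of the 9 genes and in 0.225% of the 32851 mouse promoters of the same length. The letters TATAAA, also searched on both strands, were in 2 of the 10 windows, those of *Hoxd13* and *Hoxd4*, and in 12.4% of all promoters. In *Hoxd13* the matches on the minus and plus strands overlapped, at 126 and 124 bases before the start. The *Hoxd13* window had a GC content of 74.4% and a ratio of observed to expected CpG of 0.9, and the *Hoxd1* window 71.6% and 0.76. The medians over all promoters were 52.4% and 0.37, and 8 of the 10 windows lay above that CpG ratio. The first *Hoxd11* window was lower on both measures, at 44.8% and 0.16. These matches and shares describe the windows alone, and distal enhancers were not examined.

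Levels are given as TPM, the abundance of a transcript corrected for its length and for library size, which can therefore be compared between genes. The libraries held 38.1 to 56.8 M reads by estimate, and a TPM of 1 stood for 20.7 to 29.3 reads per kilobase of transcript. Tests used limma on log2(TPM + 1) with p-values adjusted over all genes tested by the Benjamini-Hochberg method and a threshold of 0.05. A gene was tested if 3 or more of the compared libraries had a TPM of 1 or above. A log2 fold change on this scale understates the change of genes with a low TPM. *Gli3* itself, the targeted gene, had a TPM of 73.4 to 89.7 in anterior E10.5 WT libraries and 38.7 to 40.9 in *Gli3*-/- libraries. At E9.25 it was 44.2, 15.8 and 44.6 in WT and 14.3 to 20.8 in *Gli3*-/- libraries. The library labelled E9.25 WT replicate 2 thus lay within the *Gli3*-/- range, while the Xt-J allele left a gene-level signal in all *Gli3*-/- libraries. The HoxD calls at E9.25, between the stages in WT and in the interaction are also given without this library, as is *Hoxd10* at E9.25. The other results that use it are given with it only. The 6 limb bud mesenchyme markers, such as *Tbx5* and *Prrx1*, were each at a TPM of at least 1 in every library, and the 2 hindlimb markers *Tbx4* and *Pitx1* summed to a TPM of 0.765 to 8.65.

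In the anterior bud at E10.5, the 4 genes at the 5′ end of the cluster were higher in *Gli3*-/- than in WT buds. *Hoxd13* and *Hoxd12* rose most, *Hoxd11* less and *Hoxd10* least, while *Hoxd9*, *Hoxd8*, *Hoxd4* and *Hoxd3* passed no test. *Hoxd1* was too low to be tested. Thus 4 of the 8 genes tested passed, all higher, where 1.84% of all 15654 genes tested were called higher and 4.77% in either direction. *Hoxd12* reached the filter only through its *Gli3*-/- libraries, where it is high, so its call adds no independent support to this count. The median log2 fold change of the 8 genes was 0.53, and that of all genes was -0.02.

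*Hoxd13*, the gene at the 5′ end, had a TPM of 3.57, 13.5, 5.65 and 2.53 in the 4 WT libraries and of 67.7, 132 and 109 in the 3 *Gli3*-/- libraries. The groups did not overlap, and WT replicate 2 was the highest WT library by far. The log2 fold change was 3.99 ± 0.43 (SE), with an adjusted p of 0.00118 in limma, and the mean TPM was 16.3 times higher. Without WT replicate 2 the log2 fold change was 4.398.

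*Hoxd12*, its neighbour, had a TPM of 0.520, 4.62, 0.947 and 0.274 in WT and of 20.0, 52.5 and 37.2 in *Gli3*-/- libraries. WT replicate 2 was again the highest in WT and *Gli3*-/- replicate 1 the lowest in its group, and the groups lay apart. The log2 fold change was 4.03 ± 0.49 (adjusted p = 0.00215, limma), and 4.49 without WT replicate 2. The ratio of the mean TPM was 23.0, against a WT level that rested on few reads.

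*Hoxd11* was already abundant in the WT anterior bud, with a TPM of 33.8, 64.2, 47.5 and 41.0, and reached 173, 226 and 201 in *Gli3*-/- libraries. The lowest *Gli3*-/- library was well above the highest WT library. The log2 fold change was 2.11 ± 0.19 (adjusted p = 0.000544, limma), a ratio of mean TPM of 4.29. *Hoxd10* was at 82.3, 84.5, 74.3 and 71.9 in WT and at 140.0, 140.2 and 136.8 in *Gli3*-/- libraries, the tightest group of the cluster. Its log2 fold change of 0.82 ± 0.07 (adjusted p = 0.000544, limma) was the smallest of the 4 that passed. In a single model of all 14 libraries, where the wider spread of the E9.25 libraries enters the test, the adjusted p of *Hoxd10* was 0.231. It passed in each of its other 10 alternatives, with an adjusted p of 0.000153 to 0.0253 in limma.

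The genes from *Hoxd9* to *Hoxd1* gave no call at E10.5. *Hoxd9* had a log2 fold change of -0.15 ± 0.12 (adjusted p = 0.533) and *Hoxd4* one of -0.18 ± 0.12 (adjusted p = 0.468, limma for both), and both overlapped between genotypes. *Hoxd8* had a TPM of 31.8 to 37.1 in WT and 37.3 to 44.4 in *Gli3*-/- libraries, which did not overlap but differed little, with a log2 fold change of 0.23 ± 0.09 (adjusted p = 0.207, limma). *Hoxd3* had a TPM of 2.92 to 5.04 in WT and 1.91 to 2.56 in *Gli3*-/- libraries, and it was the single gene of the cluster that lay wholly lower, with a log2 fold change of -0.59 ± 0.18 (adjusted p = 0.101, limma). *Hoxd1* was at a TPM of 0.223 to 0.911 in WT and 0.193 to 1.08 in *Gli3*-/- libraries, which overlapped. In all, 6 of the 8 genes tested had groups that did not overlap, 5 higher and 1 lower, where 19.3% of all genes did. An adjusted p above the threshold does not show that these levels were alike.

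**Figure D1:**
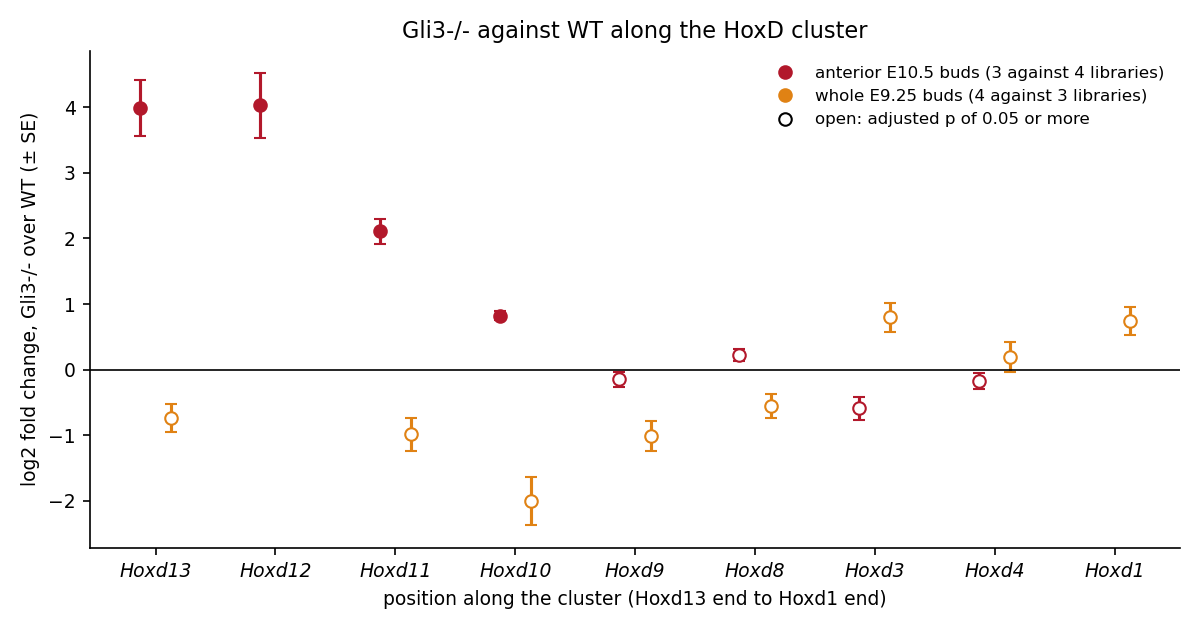
Log2 fold change of each HoxD gene, *Gli3*-/- over WT, on the log2(TPM + 1) scale (y axis, ± SE) in order along the cluster (x axis), for anterior E10.5 buds (red) and whole E9.25 buds (orange). Filled points passed an adjusted p of 0.05, open points did not, and genes not tested are left out. At E10.5 the estimates go from 3.99 and 4.03 at *Hoxd13* and *Hoxd12* to 2.11 and 0.82 and lie between -0.59 and 0.23 from *Hoxd9* on, while at E9.25 the estimates from *Hoxd13* to *Hoxd8* are all below 0.

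WT replicate 2 had the highest level of *Hoxd13*, *Hoxd12* and *Hoxd11* in its group, but its *Hoxd10* level of 84.5 was close to the 82.3 of replicate 1. In the same library the posterior gene *Hand2* was at 31.4 against 21.0 to 22.8 in the other WT libraries, the HH target *Gli1* at 9.87 against 3.41 to 5.15, and the anterior gene *Alx4* at 31.9 against 51.0 to 52.9. *Tbx2* and *Tbx3*, which the study describes as posteriorly expressed, were lower there. Their TPM was 8.18 against 13.1 to 18.6 and 16.3 against 21.1 to 26.4. The HH target *Ptch1*, at 11.7, was close to the 11.3 of the next highest WT library. Among *Gli3*-/- libraries, replicate 1 had the lowest *Hoxd13*, *Hoxd12* and *Hoxd11*, and also the lowest *Shh*, at 1.17 against 7.47 and 8.67. In WT, *Shh* was listed at 0 in each of the 4 libraries. The 7 posterior markers summed to a TPM of 83.9 to 96.5 in WT and 159 to 247 in *Gli3*-/- libraries. Of these markers 4 were called higher and 1, *Tbx2*, was called lower at -1.59 ± 0.26 (adjusted p = 0.00998, limma). Of the 4, *Shh* reached the filter only through its *Gli3*-/- libraries, where it is high. The anterior gene *Alx4* was at 31.9 to 52.9 in WT and 1.05 to 6.22 in *Gli3*-/- libraries. The 6 mesenchyme markers summed to 762 to 919 and 588 to 630, with 1 called higher and 3 lower, and the 7 surface ectoderm markers to 184 to 225 and 273 to 306, with 1 called higher. Only 2 of the 7 ectoderm markers lay above the median gene, and their median log2 fold change was -0.24, so most did not follow their sum. Over all genes 1.84% were called higher and 2.93% lower. The part of these markers in the HoxD differences was not tested.

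At E9.25 the same genotype comparison gave no call in the cluster, and the estimates at the 5′ end were below 0. By limma, 0 of the 8 genes tested passed, where 0.136% of all 14760 genes did. At an unadjusted p under 0.05 there were 7 of the 8, and 22% of all genes (19.2% higher and 2.78% lower). Of the 7, *Hoxd3* and *Hoxd1* were higher and the rest lower. In 1 model of all 14 libraries, which takes the spread from all 4 groups, 5 of the 8 passed, *Hoxd11*, *Hoxd10*, *Hoxd9* and *Hoxd8* lower and *Hoxd3* higher. *Hoxd13*, *Hoxd11*, *Hoxd10*, *Hoxd9* and *Hoxd8* were lower in every *Gli3*-/- library than in any WT library, and *Hoxd3* and *Hoxd1* were higher in every one. Groups that did not overlap were seen in 3.36% of all genes in the lower direction and in 9.97% in the higher. *Hoxd11* reached the filter only through its WT libraries. The median log2 fold change was -0.65 over the 8 genes and 0.23 over all genes, a shift of all genes that another scaling removes. Relative to that median the estimates were -0.97 for *Hoxd13*, -1.21 for *Hoxd11*, -2.23 for *Hoxd10*, -1.24 for *Hoxd9* and -0.78 for *Hoxd8*.

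*Hoxd10* had the largest estimate. Its TPM was 19.9, 39.7 and 48.2 in WT and 6.15, 8.17, 4.51 and 14.5 in *Gli3*-/- libraries, and the nearest libraries of the groups were 14.5 and 19.9. The log2 fold change was -2.004 ± 0.37 with an adjusted p of 0.080 in limma. It passed when either library at that edge was left out, with an adjusted p of 0.0211 without WT replicate 1 and 0.0256 without *Gli3*-/- replicate 4, and over all 7 such fits it ranged up to 0.345. Without the library labelled WT replicate 2 the log2 fold change was -1.89.

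*Hoxd9* was the most abundant HoxD gene at this stage, with a TPM of 108, 143 and 128 in WT and 46.2, 83.3, 45.8 and 81.3 in *Gli3*-/- libraries. Its log2 fold change was -1.01 ± 0.24 (adjusted p = 0.147, limma). *Hoxd8* was at 66.2, 73.3 and 70.2 in WT and at 37.4, 56.9, 39.5 and 59.0 in *Gli3*-/- libraries, with replicates 1 and 3 the lower ones for both genes. Its log2 fold change was -0.55 ± 0.18 (adjusted p = 0.217, limma).

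*Hoxd13*, *Hoxd12* and *Hoxd11* were low in all E9.25 libraries. *Hoxd11* had a TPM of 1.81, 2.81 and 2.20 in WT and 1.16, 0.430, 0.215 and 0.908 in *Gli3*-/- libraries, with a log2 fold change of -0.99 ± 0.25 (adjusted p = 0.179, limma). *Hoxd13* was at 2.37, 2.72 and 2.54 in WT and at 1.42, 1.09, 0.628 and 1.43 in *Gli3*-/- libraries, which left a gap between the groups (adjusted p = 0.207, limma). *Hoxd12* was listed at 0 in 2 of 3 WT and 3 of 4 *Gli3*-/- libraries, the other values being 0.0955 and 0.106, and it was not tested.

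At the 3′ end the estimates pointed the other way. *Hoxd3* was at 11.0, 8.56 and 6.51 in WT and at 12.4, 18.5, 13.6 and 18.8 in *Gli3*-/- libraries, and *Hoxd1* at 11.1, 9.49 and 6.69 and at 11.7, 17.8, 16.4 and 17.5. In both genes the lowest *Gli3*-/- library was just above the highest WT library. The log2 fold changes were 0.80 ± 0.22 for *Hoxd3* (adjusted p = 0.206) and 0.74 ± 0.22 for *Hoxd1* (adjusted p = 0.215, limma for both). *Hoxd4* overlapped between the groups, at 13.4 to 22.6 in WT and 15.7 to 27.3 in *Gli3*-/- libraries, and its log2 fold change of 0.19 had no stable sign, being -0.01 with median-of-ratios size factors and -0.09 after quantile normalization. Without the library labelled WT replicate 2 again 0 of the 8 genes passed, and the other 7 kept the sign of their estimates.

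The summed levels of some markers of other cells also stood apart or nearly apart between the E9.25 groups, though few single markers passed a test. The 8 markers of the lateral plate and coelomic lining, such as *Hand1* and *Gata5*, summed to a TPM of 28.5 to 66.1 in WT and 64.2 to 165 in *Gli3*-/- libraries, and the 3 markers of intermediate mesoderm to 1.42 to 2.8 and 4.51 to 8.76. The 7 posterior markers were at 65.8 to 128 and 144 to 229, with *Shh* listed at 0 in every *Gli3*-/- library, and the 6 mesenchyme markers overlapped at 618 to 762 and 547 to 820. The 5 endothelial markers summed to 56.9 to 89 in WT and 99.4 to 142 in *Gli3*-/- libraries, and the 8 neural tube markers to 6.03 to 12.6 and 2.77 to 4.74. In limma 1 of 7 tested lateral plate and 1 of 5 posterior markers were called, both higher, where 0.136% of all genes passed. Of the endothelial markers 0 of 5 passed, of the mesenchyme markers 0 of 6, and of intermediate mesoderm and neural tube 0 of 1 each. The part of these differences in the HoxD estimates was not tested.

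**Figure D2:**
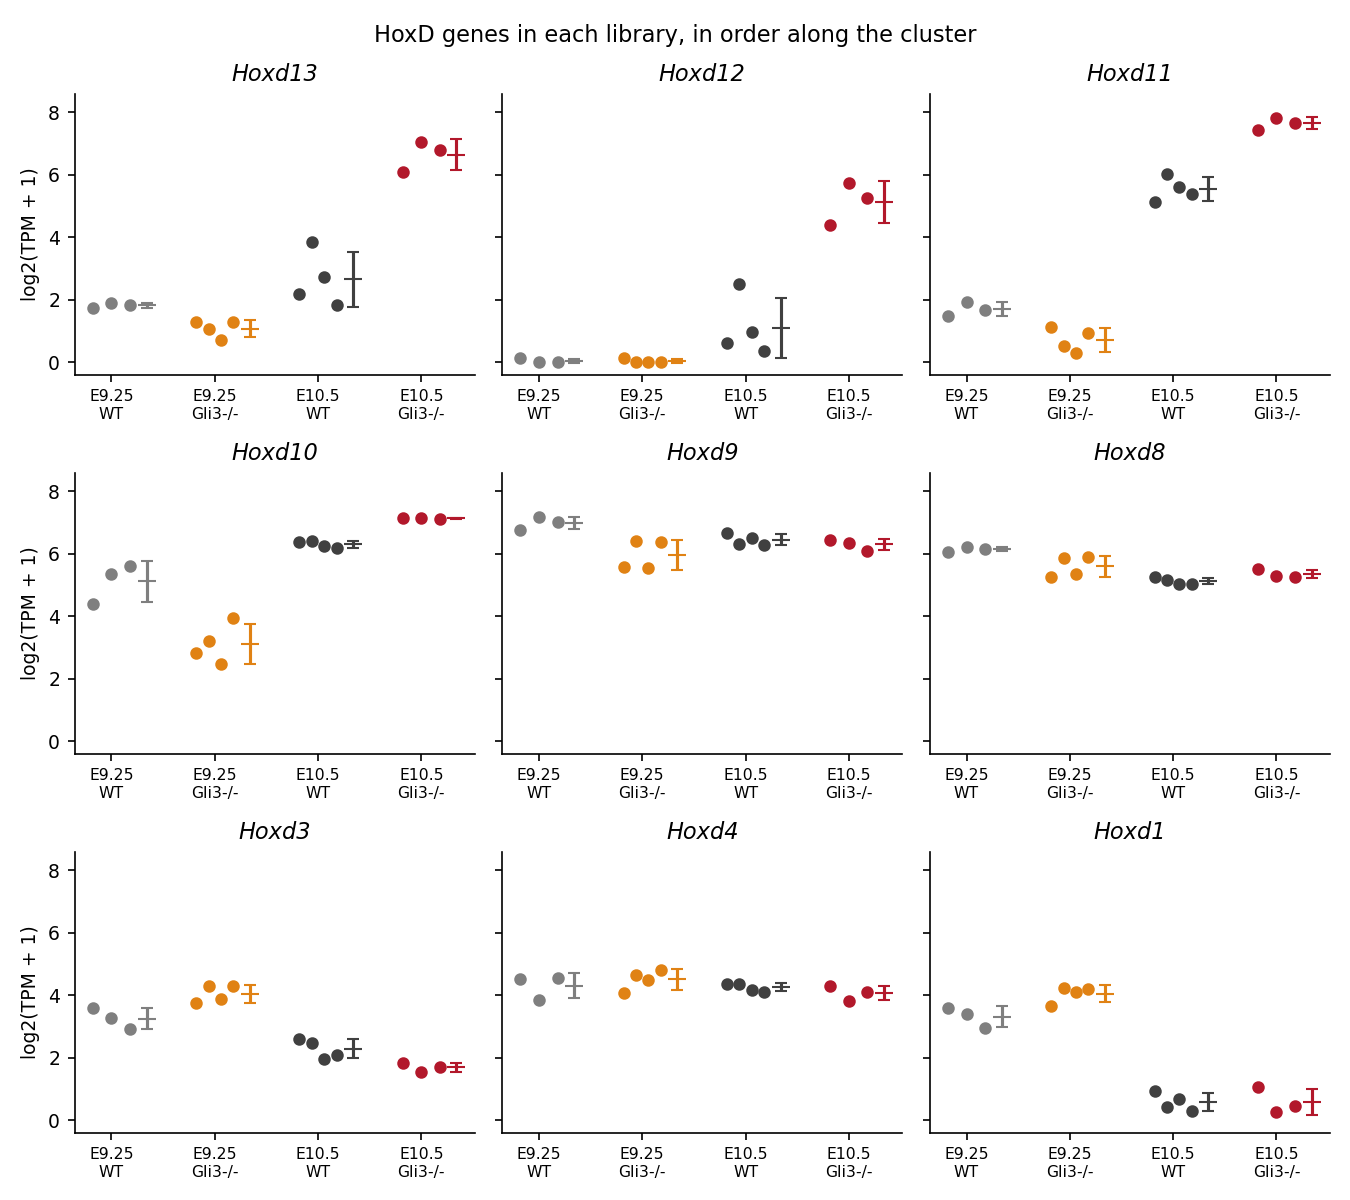
Level of each HoxD gene in each library as log2(TPM + 1) (y axis), by stage and genotype (x axis), with panels in order along the cluster. Points are libraries in order of replicate number, and the bar beside them is the mean ± SD (n = 3, 4, 4 and 3 from left to right). *Hoxd13* to *Hoxd10* are highest in the E10.5 *Gli3*-/- libraries, and *Hoxd3* and *Hoxd1* in the E9.25 *Gli3*-/- libraries.

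Between E9.25 and the E10.5 anterior bud the cluster changed in both directions. In WT, *Hoxd11* and *Hoxd10* rose and *Hoxd9*, *Hoxd8*, *Hoxd3* and *Hoxd1* fell. That is 6 of the 8 genes tested, where 48.7% of all genes passed in this comparison (38.1% higher and 10.6% lower). *Hoxd1* reached the filter only through its E9.25 libraries, where it is high, so the filter favoured a call of lower. The count without the library labelled WT replicate 2 was also 6, 2 higher and 4 lower. The median of all genes was 0.34 on the log2 scale, and 0.10 with median-of-ratios size factors, under which the split of the calls over all genes moved from 5885 higher and 1635 lower to 3659 and 2893. Relative to the median gene, *Hoxd11* was 3.50 and *Hoxd10* 0.85 higher, and *Hoxd9*, *Hoxd8*, *Hoxd3* and *Hoxd1* were at -0.87, -1.36, -1.30 and -3.07.

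Among the genes tested, *Hoxd11* made the largest rise in WT, from a mean TPM of 2.27 ± 0.50 (SD, n = 3) to 46.6 ± 12.99 (SD, n = 4). Its log2 fold change was 3.84 ± 0.22 (adjusted p = 2.7e-05, limma). *Hoxd10* went from 35.9 ± 14.5 to 78.2 ± 6.1, a log2 fold change of 1.19 ± 0.25 (adjusted p = 0.00639, limma). *Hoxd1* made the largest fall, from 9.10 ± 2.24 to 0.516 ± 0.305, or -2.73 ± 0.22 (adjusted p = 8.9e-05, limma). *Hoxd13* overlapped between the stages in WT, with a log2 fold change of 0.83 ± 0.42 (adjusted p = 0.126, limma), and so did *Hoxd4* at -0.06 ± 0.18 (adjusted p = 0.805, limma). *Hoxd12* was below the filter and was not tested.

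In *Gli3*-/- buds the 4 genes at the 5′ end rose between the stages and 2 genes nearer the 3′ end fell. *Hoxd13*, *Hoxd12*, *Hoxd11* and *Hoxd10* rose and *Hoxd3* and *Hoxd1* fell, 6 of 9 genes, where 25% of all genes passed (15.8% higher and 9.17% lower). *Hoxd12* and *Hoxd11* reached the filter only through the E10.5 libraries, and *Hoxd1* only through the E9.25 libraries, the stage where each is high. *Hoxd11* rose by a log2 fold change of 6.93 ± 0.20 (adjusted p = 3.5e-08), and *Hoxd13* by 5.57 ± 0.23 (adjusted p = 2.4e-07, limma for both). *Hoxd12* had a log2 fold change of 5.09, which depends on the added 1 because 3 of its 4 E9.25 libraries were listed at 0, and which was 8.15 with an added 0.1. *Hoxd10* rose by 4.02 ± 0.28 (adjusted p = 6.0e-06, limma), *Hoxd3* fell to -2.36 ± 0.18 (adjusted p = 9.8e-06, limma) and *Hoxd1* to -3.47 ± 0.22 (adjusted p = 3.6e-06, limma). *Hoxd9*, *Hoxd8* and *Hoxd4* had log2 fold changes of 0.33, -0.24 and -0.43 and overlapped between the stages.

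Markers of other cells moved with stage as well. Of the 8 lateral plate and coelomic markers, 5 of 5 tested were lower at E10.5 in WT, and 7 of 7 in *Gli3*-/- libraries. Over all genes 10.6% and 9.17% were called lower. In WT, 5 of these markers reached a TPM of 1 in every E9.25 library and 1 in every E10.5 library, so the filter favoured a call of lower. In *Gli3*-/- libraries 0 of these markers reached a TPM of 1 in every E10.5 library, so all 7 met the filter through E9.25 libraries. Their summed TPM at E10.5 was 1.73 to 3.82 in WT and 1.73 to 2.41 in *Gli3*-/- libraries, below the E9.25 ranges given above. Of the markers of somite and migrating muscle progenitors, 4 of 5 tested were higher and 1 lower in each genotype, where 38.1% (WT) and 15.8% (*Gli3*-/-) of all genes were called higher. They summed to 19.3 to 22.8 at E9.25 and 51.0 to 62.6 at E10.5 in WT, and to 16.5 to 24.0 and 34.9 to 55.0 in *Gli3*-/- libraries. The part of these markers in the HoxD changes was not tested.

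**Figure D3:**
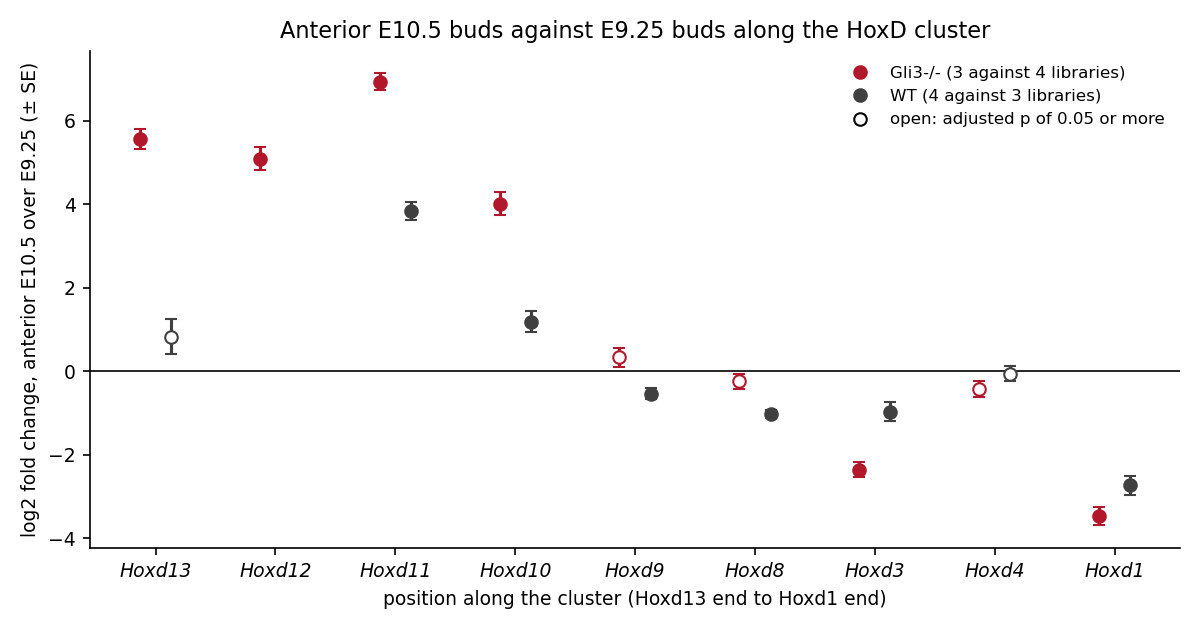
Log2 fold change of each HoxD gene, anterior E10.5 over E9.25 buds, on the log2(TPM + 1) scale (y axis, ± SE) in order along the cluster (x axis), in *Gli3*-/- (red) and WT (black). Filled points passed an adjusted p of 0.05. The red points lie above the black ones from *Hoxd13* to *Hoxd8* where both were tested, and below them at *Hoxd3*, *Hoxd4* and *Hoxd1*.

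The interaction of stage and genotype asks whether *Gli3* loss acted differently on a gene in the E9.25 and in the anterior E10.5 bud. It passed for 5 of the 9 genes, 4 higher and 1 lower, where 0.477% of all 16368 genes were called higher and 1.65% lower. Here too *Hoxd12* reached the filter only through the E10.5 *Gli3*-/- libraries. At E9.25 it was listed at 0 in 2 of 3 WT and 3 of 4 *Gli3*-/- libraries, so its term rests on the E10.5 difference. The effect at E10.5 exceeded that at E9.25 by 4.74 ± 0.52 for *Hoxd13* (adjusted p = 0.000358), 4.04 ± 0.57 for *Hoxd12* (adjusted p = 0.00192), 3.10 ± 0.32 for *Hoxd11* (adjusted p = 0.000219) and 2.83 ± 0.42 for *Hoxd10* (adjusted p = 0.00276, limma, log2 scale). *Hoxd3* went the other way, at -1.39 ± 0.29 (adjusted p = 0.0224, limma). The median gene was at -0.24 in this comparison, so that relative to it *Hoxd3* was at -1.16. *Hoxd3* lost its call in 4 of 10 alternatives and in 4 of the 14 fits with a library left out. With that labelled E9.25 WT replicate 2 left out it was -1.40 (adjusted p = 0.046, limma), and the 4 genes at the 5′ end stayed called. *Hoxd8*, at 0.78 ± 0.21 (adjusted p = 0.0716, limma), passed instead under 3 alternatives, the scalings by quantiles, by size factors and by FPKM. *Hoxd9*, *Hoxd1* and *Hoxd4* gave no call, at 0.86, -0.74 and -0.38.

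The order of the levels within the cluster shifted with stage and genotype. In E9.25 WT buds *Hoxd9* was highest with a mean TPM of 126 ± 17.1 (SD, n = 3), then *Hoxd8* with 69.9 ± 3.57, then *Hoxd10* with 35.9 ± 14.5 and *Hoxd4* with 19.3 ± 5.1, and the last pair overlapped. *Hoxd1* and *Hoxd3* followed at 9.10 and 8.69, and *Hoxd13* and *Hoxd11* at 2.54 and 2.27, and neither pair was apart. *Hoxd12* was last. In E9.25 *Gli3*-/- buds *Hoxd10* stood below *Hoxd4*, *Hoxd1* and *Hoxd3*, with a mean TPM of 8.33 ± 4.36 (SD, n = 4), although its range overlapped those of *Hoxd3* and *Hoxd1*.

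In the anterior E10.5 WT bud *Hoxd9* and *Hoxd10* led, at 86.7 ± 11.0 and 78.2 ± 6.09 (SD, n = 4), and overlapped. *Hoxd11* came next at 46.6 ± 12.99 and overlapped *Hoxd8* at 33.9 ± 2.52. *Hoxd13*, *Hoxd3*, *Hoxd12* and *Hoxd1* each overlapped the next in order, from 6.32 down to 0.516. In the *Gli3*-/- anterior bud *Hoxd11* was the highest at 200.2 ± 26.5 (SD, n = 3), above *Hoxd10* at 139.0 ± 1.92, and both were apart from what followed. *Hoxd13*, at 102.9 ± 32.5, overlapped *Hoxd9*, at 78.1 ± 9.99. *Hoxd12*, at 36.6 ± 16.2, overlapped *Hoxd8*, at 39.8 ± 3.93.

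Summed over the 9 genes, the TPM was 243 to 293 in E9.25 WT libraries, 132 to 221 in E9.25 *Gli3*-/-, 245 to 305 in E10.5 WT and 554 to 684 in E10.5 *Gli3*-/- libraries. The WT sums overlapped between the stages, but their makeup did not. *Hoxd10* to *Hoxd13* made up 9.95% to 18.5% of the sum in E9.25 WT libraries and 42.4% to 54.8% in E10.5 WT libraries. In *Gli3*-/- libraries their share was 3.77% to 7.62% at E9.25 and 72.4% to 80.5% at E10.5. *Hoxd1*, *Hoxd3* and *Hoxd4* had larger shares in every E9.25 *Gli3*-/- library than in any E9.25 WT library, with 7.91% to 11.5%, 8.5% to 9.57% and 11.5% to 15%. In E9.25 WT libraries the same genes had 2.33% to 4.58%, 2.27% to 4.53% and 4.6% to 9.03%. The E9.25 sum was lower in *Gli3*-/- libraries, so a larger share need not mean a higher level. The TPM of *Hoxd4* itself overlapped between these groups.

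**Figure D4:**
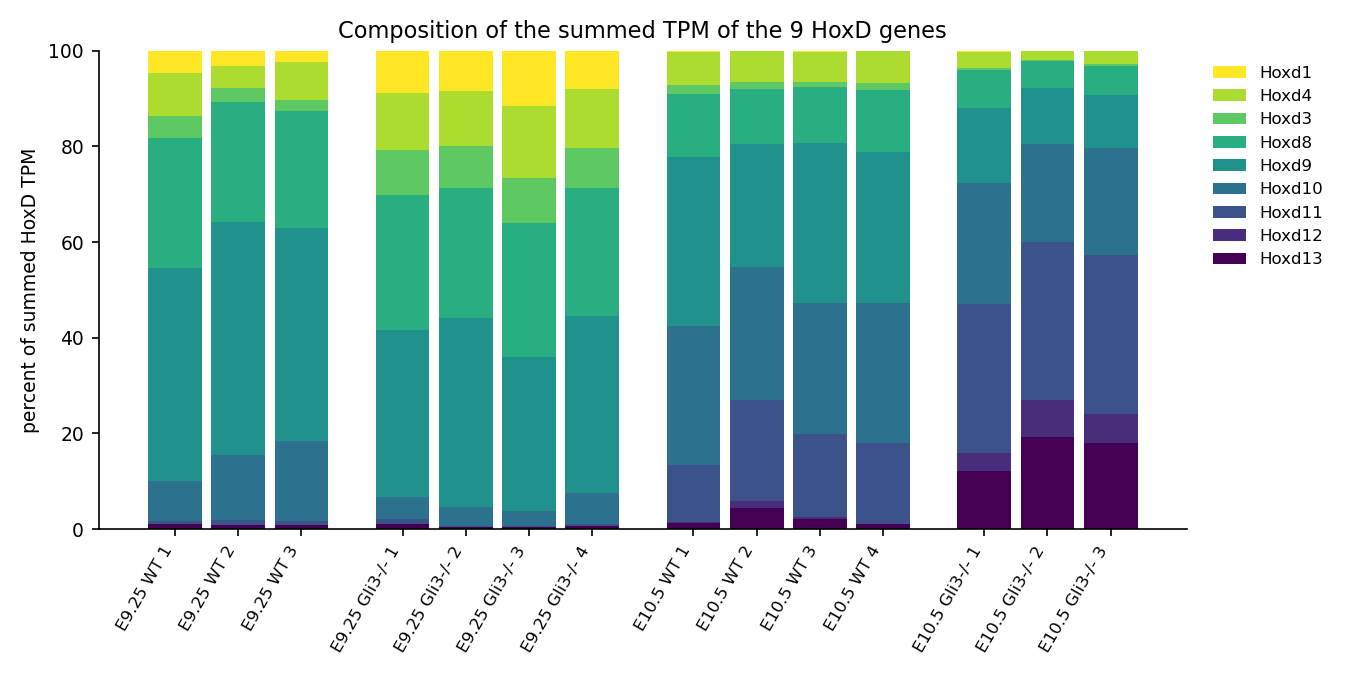
Share of each HoxD gene in the summed TPM of the 9 genes (y axis, percent) in each of the 14 libraries (x axis), stacked from *Hoxd13* at the bottom to *Hoxd1* at the top. The share of *Hoxd10* to *Hoxd13* is at most 18.5% at E9.25 and at least 72.4% in the E10.5 *Gli3*-/- libraries.

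Genes inside and beside the cluster were read in the same tables. The noncoding *Gm28309*, which overlaps *Hoxd11* and *Hoxd10*, rose in the E10.5 *Gli3*-/- bud, from a TPM of 2.56 to 5.74 in WT to 14.6 to 22.8, with a log2 fold change of 1.98 ± 0.23 (adjusted p = 0.00163, limma). *Haglr*, a noncoding gene on the minus strand next to *Hoxd1*, had a log2 fold change of 0.18 ± 0.20 at E10.5 (adjusted p = 0.687) and fell between the stages in WT by -1.79 ± 0.20 (adjusted p = 0.000431, limma for both). *Evx2*, a homeobox gene beyond *Hoxd13*, was listed at 0 in 3 of 4 E10.5 WT libraries and had a TPM of 0.214, 2.12 and 0.884 in *Gli3*-/- libraries, in which replicate 1 was the lowest again. It was below the filter.

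Of the genes farther out, *Lnp* and *Mtx2* gave no call at E10.5. *Lnp*, beyond *Evx2*, had a log2 fold change of 0.12 ± 0.13 (adjusted p = 0.674), and *Mtx2*, beyond *Hoxd1*, one of 0.01 ± 0.11 (adjusted p = 0.978, limma for both). Of the 46 other gene IDs within 1 Mb of the cluster, 17 were tested and 3 passed, all higher: *Gm28309*, *Chn1* at 0.35 ± 0.07 and *Atp5g3* at 0.30 ± 0.07. Over all genes 1.84% were called higher, and *Gm28309* may share reads with the *Hoxd11* and *Hoxd10* it overlaps. Their median log2 fold change was 0.01.

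The HoxA cluster, the other one used for limb patterning, was set beside HoxD by paralogue group. At E10.5 *Hoxa13* had a TPM of 0.828, 2.49, 5.73 and 4.09 in WT and of 12.98, 34.6 and 24.6 in *Gli3*-/- libraries, a log2 fold change of 2.60 ± 0.44 (adjusted p = 0.0107, limma). *Hoxa11* and *Hoxa10* rose by 0.81 ± 0.08 (adjusted p = 0.000643) and 0.47 ± 0.07 (adjusted p = 0.00456, limma for both), and *Hoxa9* was at 0.03 ± 0.06 (adjusted p = 0.847, limma). Each estimate was closer to 0 than that of the HoxD paralogue, a difference that was not tested. At E9.25 *Hoxa9*, *Hoxa10* and *Hoxa11* were lower in every *Gli3*-/- library than in any WT library, with log2 fold changes of -1.37, -1.73 and -1.70, and none passed in limma (adjusted p of 0.080, 0.147 and 0.133). At an unadjusted p under 0.05 there were 3 of 3 of them, where 2.78% of all genes were lower at that p. The HoxA cluster as a whole was not lower. Of its 10 genes tested at E9.25, 4 lay wholly higher and 3 wholly lower in *Gli3*-/- libraries, with a median log2 fold change of 0.02. Over all genes 9.97% lay wholly higher and 3.36% wholly lower.

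**Figure D5:**
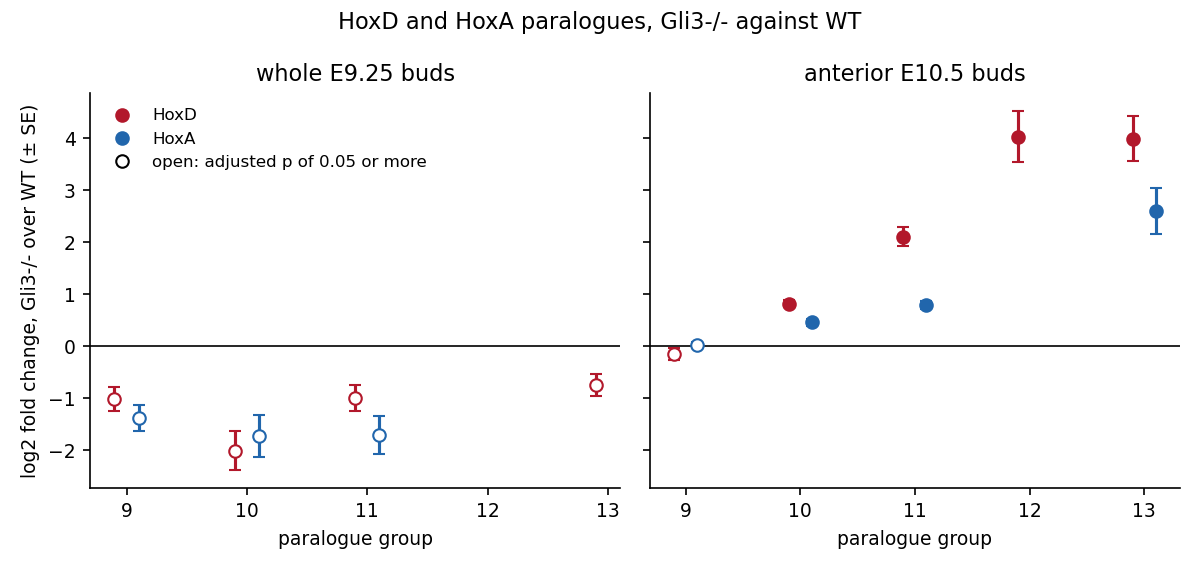
Log2 fold change, *Gli3*-/- over WT, on the log2(TPM + 1) scale (y axis, ± SE) for HoxD (red) and HoxA (blue) genes of paralogue groups 9 to 13 (x axis), in whole E9.25 buds (left) and anterior E10.5 buds (right). Filled points passed an adjusted p of 0.05, and genes that were absent or not tested are left out. All points tested are below 0 at E9.25, and at E10.5 they are above 0 in groups 10 to 13.

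Over whole clusters at E10.5, 3 of 11 HoxA genes were higher and 4 lower, 7 of 7 tested HoxB genes were lower, and 3 of 6 tested HoxC genes were lower, where 1.84% of all genes were called higher and 2.93% lower. The medians of the log2 fold changes were -0.31, -1.66 and -1.39. Of the 9 Hox cofactors of the Meis, Pbx and Pknox families, 5 were lower and 0 higher, with a median of -0.73. Of the 9 genes of the HH axis, 5 were higher and 1, *Gli3*, was lower. One of those called higher, *Shh*, reached the filter only through its *Gli3*-/- libraries. At E9.25 no HoxA, HoxB, HoxC or cofactor gene passed in limma, and at an unadjusted p under 0.05 there were 8 of 10, 4 of 9, 3 of 5 and 5 of 8, where 22% of all genes had one. In the HH axis 1 of 6 passed in limma, the HH receptor *Ptch1*, with a log2 fold change of 2.28 ± 0.32 (adjusted p = 0.0309, limma). The library labelled WT replicate 2 is in this test, and its *Ptch1* TPM of 2.48 was the lowest in WT, against 8.08 and 5.82.

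Across the 14 libraries *Hoxd13* varied together with *Hoxd12*, *Hoxd11* and *Hoxd10*, was near a correlation of 0 with *Hoxd9* and varied against the genes from *Hoxd8* to *Hoxd1*. Pearson correlations of log2(TPM + 1) are given as descriptions, since the libraries of a group share stage and genotype. *Hoxd13* and *Hoxd12* were at 0.989, *Hoxd13* and *Hoxd10* at 0.782, *Hoxd13* and *Hoxd9* at 0.003 and *Hoxd13* and *Hoxd3* at -0.807. *Hoxd11* and *Hoxd1* had the most opposed pattern, at -0.954, and *Hoxd3* and *Hoxd1* were alike at 0.946. *Hoxd9* and *Hoxd4* were at 0.011.

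The genes most like each HoxD gene were sought outside the cluster, among the 16368 genes that reached a TPM of 1 in 3 or more libraries. The 3 most like each of the HoxD genes described here lay on other chromosomes, except *Chrna1* for *Hoxd13* and *6530402F18Rik* for *Hoxd1*, which are also on chromosome 2. *Mamdc2* (r = 0.981, n = 14) and *Stra6l* (r = 0.979) were the genes outside the cluster most like *Hoxd13*, and the same genes were most like *Hoxd12* (r = 0.97 and 0.973), followed by *Hottip* (r = 0.947), a noncoding gene beside *Hoxa13*. *Hoxa11os* (r = 0.984), antisense to *Hoxa11*, led for *Hoxd11*, and the zinc finger gene *Zic2* (r = 0.985) for *Hoxd10*. *Hoxb1*, *Hoxa4* and *Hoxb4* (r = 0.975, 0.972 and 0.969) were most like *Hoxd3*. For *Hoxd4* the likest gene was less close, *0610038B21Rik* at 0.873. *Hoxd8* was closest to *Myl2* (r = 0.961) and *Hoxd1* to *6530402F18Rik* (r = 0.993).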

How the data were processed

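RNA-seq of forelimb buds was read in 14 libraries of 4 groups. Per the methods of the study, RNA was extracted with TRIzol, libraries were made with the NEBNext Ultra II RNA kit and sequenced as single reads of 100 bases, and the authors used HISAT2 for alignment and DESeq2 for their own tests. The tool that made the deposited gene tables, its annotation and its use of strand are not given in the sources used here. The build is mm10 by the submitters' processing notes. The authors deposited TPM, which was used for every result, and FPKM, which was used as an alternative. The deposited coverage, the mean read depth per base, was used with FPKM to estimate the reads of each library. The tables hold no counts, so count models were not run.

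TPM of a gene ID on several lines was summed. Genes that reached a TPM of 1 in 3 or more of the compared libraries were tested on log2(TPM + 1) with limma 3.58.1 (lmFit, eBayes with a trend) in R 4.3.3, in 5 comparisons of the 4 groups, two-sided, with the Benjamini-Hochberg adjustment over all genes tested and a threshold of 0.05. Pairwise comparisons used only the libraries of their groups, and the interaction used all 14. The scripts were tested on simulated data. Python 3.11.15, pandas 2.3.3, NumPy 2.4.6 and matplotlib 3.10.9 served for the rest. Replicates are libraries of pooled buds, and whether pools share litters is not stated, so the p-values measure the spread between these libraries.

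Named genes are the 9 HoxD genes, genes that overlap or flank them, HoxA paralogues of groups 9 to 13, markers whose values stand beside a result, and for each HoxD gene the 3 genes outside the cluster with the highest Pearson correlation over the 14 libraries, of which the first or those worth a clause are printed. Some results under this rule are not reported here. The HoxD members follow from their names, but the cluster and the lists were picked for study with earlier results of these data known. Alternatives changed the added constant to 0.1, the filter to none or to a TPM of 5, the eBayes prior to one with no trend, and the scaling to quantiles, to median-of-ratios size factors or to FPKM. Others were weights for sample quality, a block for the replicate number, 1 model of all 14 libraries, and each library left out in turn with the same genes tested.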

Additional observations from a re-analysis of the deposited data

Results flagged for a closer look

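For 5 HoxD genes the interaction of stage and genotype passed in limma, between the whole E9.25 bud and the anterior E10.5 bud. On the log2 scale the effect at E10.5 minus that at E9.25 was 4.74 for *Hoxd13*, 4.04 for *Hoxd12*, 3.10 for *Hoxd11*, 2.83 for *Hoxd10* and -1.39 for *Hoxd3*. *Hoxd12* was listed at 0 in most E9.25 libraries, was not tested between the genotypes there and reached the filter only through E10.5 *Gli3*-/- libraries. Its term thus rests on the E10.5 difference. Stage and the part of the bud taken cannot be told apart in any of these terms.

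Of 18 sets of 4 libraries in which a library far from the others was looked for, 1 held such a library: *Hoxd12* in the E9.25 *Gli3*-/- group, with log2(TPM + 1) of 0.145 in 1 library, where the other 3 were listed at 0. With 3 libraries at 0, any value above 0 stands apart.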

How the results depend on the processing

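For 5 comparisons the number of HoxD genes called was recomputed in 93 alternative fits, and it moved by more than 1.5 times in 5 of them. At E9.25 the count of 0 became 5 in 1 model of all 14 libraries (*Hoxd11*, *Hoxd10*, *Hoxd9* and *Hoxd8* lower, *Hoxd3* higher). Leaving out 1 library gave counts from 0 to 1, the 1 being *Hoxd10* without E9.25 WT replicate 1 or *Gli3*-/- replicate 4. Elsewhere, leaving out a library gave 4 calls each time for the genotypes at E10.5.

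With the replicate number as a block the E9.25 count was 2 (*Hoxd10* and *Hoxd9*, both lower), and the interaction count was 3 with the block numbered as in the deposited tables. Same-numbered libraries had correlations of their deviations between -0.295 and 0.316, and in no comparison were all of them over 0.1 (E9.25 -0.199 to -0.161), so the numbers are not taken to pair the libraries. In the blocked fits of the stages *Hoxd13* gained and *Hoxd9* lost a call in WT, and *Hoxd9* gained one in *Gli3*-/- libraries. In the interaction *Hoxd3* lost its call in both blocked fits and *Hoxd12* in the second. The block changed no other call.

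Of 781 values of single genes under alternatives, 745 kept direction and side of the threshold, 20 gained a call, 11 lost it and 5 changed sign. All 5 were of *Hoxd4*, which was not called in those comparisons: at E9.25 -0.092 (quantile normalization), -0.01 (size factors) and, with 1 library left out, a range of -0.035 (the library labelled WT replicate 2) to 0.341, and between the stages in WT a range of -0.288 to 0.067, above 0 without WT replicate 1 or 3. *Hoxd4* passed between the stages after quantile normalization, in WT and in *Gli3*-/- buds, and in the latter also with sample weights and without E9.25 replicate 1. The interaction of *Hoxd3* was lost without E9.25 WT replicate 3, E10.5 WT replicate 1 or E10.5 *Gli3*-/- replicate 2 or 3 (adjusted p up to 0.065, limma). The causes were not tested. Low genes are limited by depth: a TPM of 0.1 stands for 2 or 3 reads per kilobase.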
